A study of Mus musculus with 24 samples.

Results

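Macrophages make cholesterol, take it up with engulfed material and export it, and the genes that carry out and control this traffic were followed through the first hours of an inflammatory stimulus. The genes were 32 of the 24273 in the expression table, chosen by name for their role in sterol handling, by a rule that uses no measured value, though with earlier results of these data known. By role they were 8 genes of the mevalonate pathway, 11 enzymes from squalene to cholesterol, 5 genes of sterol sensing, 3 of sterol transport, and 5 of the liver X receptor (LXR) branch and efflux. All 32 passed the filter on low values, which asked for a linear value of at least 5 in at least 3 libraries and kept 13901 genes.

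RNA was sequenced from bone marrow-derived macrophages (BMDMs) of C57BL/6 mice, grown in L-cell conditioned medium and kept overnight in medium with less serum before stimulation. Both genotypes carried LysM-Cre, a Cre recombinase placed at the lysozyme gene Lyz2 and expressed in myeloid cells, so that deletion depends on each cell having expressed it. In cells labelled FosKO, both Fos alleles were floxed. Control cells were labelled LysM-Cre, and the sources differ on whether they also carried 1 floxed Fos allele. Cells were unstimulated (0 h) or were given lipopolysaccharide (LPS, a bacterial ligand of the receptor TLR4) at 100 ng/ml for 0.5, 1 or 2 h. The 8 groups had 3 libraries each, 24 in all. The study describes its libraries as biological replicates, the labels do not name the animals or cultures behind them, and p-values measure the spread between these libraries.

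Cholesterol synthesis starts with the mevalonate pathway, which builds isoprenoid units, and continues from squalene through lanosterol to cholesterol. When sterols in the endoplasmic reticulum run low, the escort protein SCAP carries the transcription factors SREBP-1 and SREBP-2 to the Golgi, where they are cut and released to activate synthesis genes. INSIG1 and INSIG2 hold SCAP back when sterols are plentiful. In the opposite state, oxysterols activate the nuclear receptors LXRα and LXRβ, which induce the cholesterol exporters ABCA1 and ABCG1 and the ubiquitin ligase MYLIP, which lowers receptor-mediated uptake of lipoproteins. Cholesterol from engulfed lipoproteins leaves the lysosome through NPC2 and NPC1.

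Values are log2 values that the authors had normalised, so a difference of 1 is a doubling, and they are not corrected for gene length, so levels are compared only within a gene. Values of 3 libraries are given in the order of their replicate numbers. The depth of each library is unknown from this table, and the error given is the spread between libraries. Fos, the targeted gene, was not lower throughout in the libraries labelled FosKO. It lay between 11.07 and 11.17 in LysM-Cre and between 12.41 and 12.72 in FosKO at 0 h, between 13.43 and 13.57 against 12.64 to 12.81 at 0.5 h, between 11.02 and 11.34 against 12.67 to 12.86 at 1 h, and between 9.42 and 9.61 against 12.67 to 12.93 at 2 h, so that it was lower in FosKO at 0.5 h and higher at the other 3 times. A single value per gene does not separate a deleted stretch from the rest of a transcript, so it does not check the labels, and genotype names below are those of the labels. Lyz2, the locus of the Cre, lay between 10.87 and 11.57 in LysM-Cre and between 16.08 and 16.33 in FosKO. The groups thus differed in Lyz2 as well as in Fos, and what goes with either gene cannot be told apart in the genotype comparison. All 6 macrophage markers passed the filter in both genotypes, and their summed linear level was 127150 to 136698 in LysM-Cre and 127150 to 145633 in FosKO. Between genotypes, 3 of them were called higher and 3 lower before LPS and 3 higher and 0 lower after 2 h, with Mertk higher by 0.97 and 1.65. Of 6 measured neutrophil markers 3 passed the filter, and Ly6g, Camp and Elane did not. The summed linear level of the neutrophil markers was 60.8 to 80.9 in LysM-Cre and 43.7 to 52.2 in FosKO before LPS, and 96.3 to 127 against 58.8 to 68.0 after 2 h. Of the 3 that passed, 3, 2, 3 and 3 were called lower in FosKO over the 4 times. The 5 dendritic cell markers summed to 34.4 to 36.8 in LysM-Cre and 34.1 to 43.1 in FosKO before LPS and to 114 to 126 against 89.5 to 92.6 after 2 h, when Zbtb46 was called lower by 0.96, and Flt3 and Siglech stayed under the filter. Of the 3 dendritic cell markers tested, 2, 3, 2 and 2 had a higher mean in FosKO over the 4 times. After 1 h 1 of them was called higher and 0 lower, with differences from -0.03 to 0.42. The 4 fibroblast markers summed to 21.4 to 26.5 against 14.1 to 18.6 before LPS and 14.4 to 26.8 against 15.04 to 21.5 after 2 h, with none called at any time and Pdgfra and Dcn under the filter. The part of these markers in the genotype results was not tested. The 18S ribosomal RNA level split the libraries into 19 high and 5 low, the low ones at 0.5 and 1 h only, and the genotype differences within each set are given beside the results at those times for most genes described. At 0.5 h the high set held 2 libraries of each genotype and the low set 1 of each. At 1 h the high set held 2 FosKO libraries and 1 LysM-Cre library, and the low set 1 and 2. Every low set value, and every 1 h value of the high set, thus rests on 1 library for at least 1 genotype. In bulk RNA, fewer cells of a type and less RNA per cell cannot be told apart.

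The comparison of FosKO with LysM-Cre asks how sterol genes differ between cells in which Fos is targeted and their controls. In the libraries labelled FosKO the LXR and efflux genes Nr1h3, Abcg1 and Mylip and the lysosomal carrier gene Npc2 were higher. Some synthesis enzymes were higher and others lower, among them Sqle, called lower at 3 of the 4 times. The SREBP genes themselves were slightly lower, and the carrier gene Stard4 was called lower at 3 times. Before LPS, 14 of the 32 members were called in limma at an adjusted p under 0.05, of which 11 were higher and 3 lower, where 19.5% of all genes tested were higher and 15.9% lower. With 0.5 h of LPS 10 members lay higher and 6 lower (21.2% and 19.7% of all genes), with 1 h these numbers were 12 and 5 (17.98% and 15.88%), and with 2 h they were 14 and 5 (24.4% and 20.3%). The share of members called higher was thus above that of all genes at each time, while the share called lower was below it at 0 and 2 h and near it at 0.5 and 1 h. The members' median difference was 0.05, 0.03, 0.07 and 0.09 over the 4 times, where that of all genes was 0.00 throughout. No member reached a 2-fold difference.

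Across the 4 times, Hmgcs1, Dhcr7, Npc2, Nr1h3, Abcg1 and Mylip were called higher each time, and Srebf1 and Srebf2 were called lower each time. The 6 members Mvk, Idi1, Fdps, Fdft1, Cyp51 and Msmo1 were called at no time, and no member was called in both directions. The shares of all genes called each time, at no time or in both directions were not computed. Whether such persistence is particular to the members is therefore not known. The share of higher calls rested on the scaling. Under quantile normalisation, which gives every library the same distribution of values, the higher and lower members numbered 6 and 9 before LPS, then 7 and 12, 9 and 8, and 8 and 8. That scaling lowered the members' differences by a median of 0.05 before LPS and 0.09 after 2 h. Where it ended a call described here or moved its value by over 1.5 times, the value it gave stands beside it with the word quantile. The counts also moved with single libraries. Before LPS the higher and lower members numbered 7 and 5 without LysM-Cre replicate 1 or FosKO replicate 2, and 9 and 5 without FosKO replicate 1. After 0.5 h the lower members were 3 without LysM-Cre replicate 3 or FosKO replicate 1 or 3. After 1 h they were 2 without LysM-Cre replicate 2 or 3 and 3 without FosKO replicate 2, and 11 members were called in all without LysM-Cre replicate 2. After 2 h the higher members were 9 without FosKO replicate 2, and the lower ones 3 without LysM-Cre replicate 2 or FosKO replicate 3. With the high 18S libraries alone the numbers were 11 and 2 after 0.5 h. Of all genes 4766 were then called, against 5689 with all libraries. After 1 h that set held 1 LysM-Cre library. Calls among all genes moved with single libraries too. After 1 h they went from 4708 to 3997 without LysM-Cre replicate 2. Before LPS they went from 4919 to 4243 without LysM-Cre replicate 1 and to 5094 without FosKO replicate 1. Under quantile normalisation they numbered 5035, 5799, 4869 and 6024 over the 4 times, against 4919, 5689, 4708 and 6202.

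**Figure D1:**
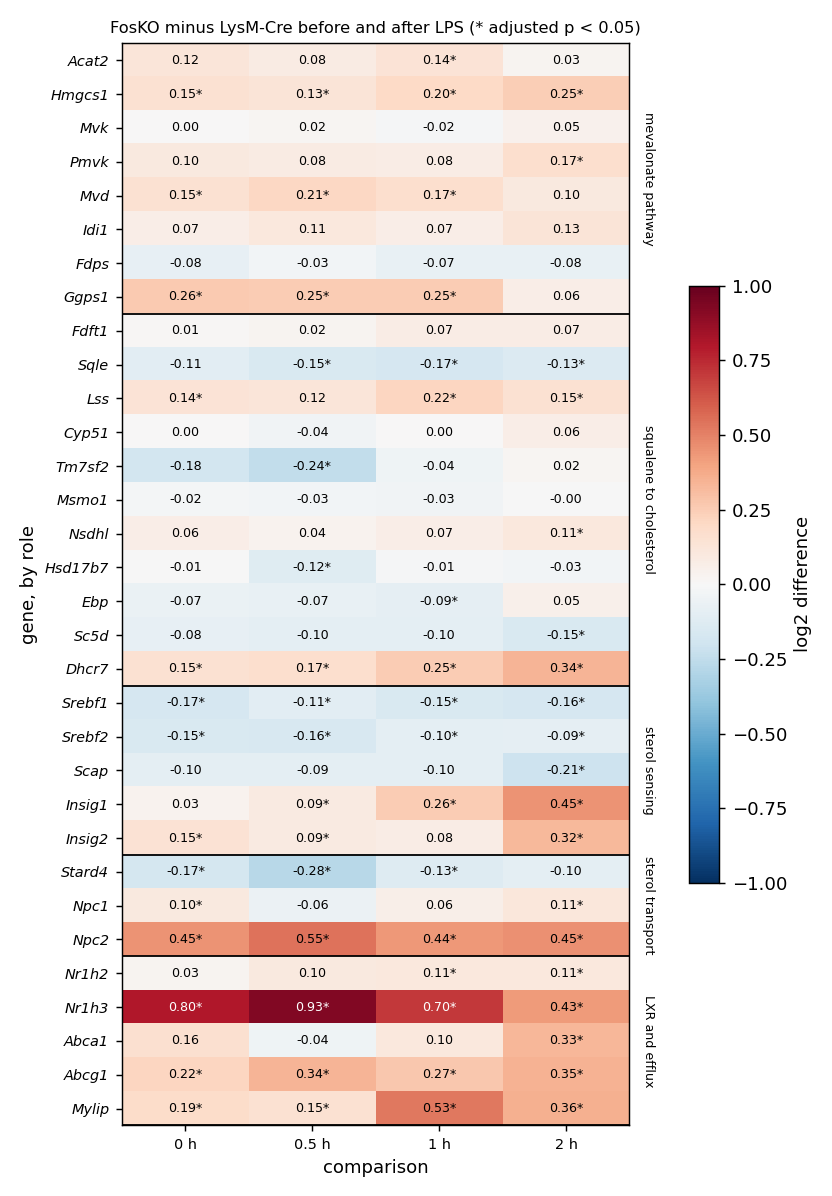
Difference between FosKO and LysM-Cre for the 32 genes (rows, grouped by role) at 0, 0.5, 1 and 2 h (columns), as log2 difference of group means of 3 libraries, with stars at an adjusted p under 0.05. The Nr1h3 row stands out with 0.80, 0.93, 0.70 and 0.43, and the Npc2 row runs from 0.44 to 0.55.

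Of the 5 LXR and efflux genes, the libraries labelled FosKO had 3, 3, 4 and 5 called higher over the 4 times and 0 called lower. Among all genes 19.5%, 21.2%, 17.98% and 24.4% were called higher at these times. Nr1h3, which encodes LXRα, showed the largest genotype difference of all members at the first 3 times. Before LPS it stood at 7.44, 7.44 and 7.37 in LysM-Cre and 8.07, 8.20 and 8.39 in FosKO. After 0.5 h the values were 7.40, 7.29 and 7.41 against 8.24, 8.15 and 8.50. After 1 h they were 7.22, 7.44 and 7.57 against 8.07, 8.10 and 8.17. After 2 h they were 7.69, 7.86 and 7.84 against 8.18, 8.29 and 8.21. The FosKO libraries lay above the LysM-Cre libraries without overlap at each time, and the gap was narrower at 2 h. The log2 difference before LPS was 0.80 ± 0.09 (SE, n = 3 and 3), which is 1.74-fold (limma adjusted p = 9.14e-07). The later differences were 0.93, 0.70 and 0.43 (adjusted p = 9.07e-08, 4.43e-06 and 0.000671). In the high 18S set they were 0.98 after 0.5 h and 0.91 after 1 h, and in the low set 0.83 and 0.57. Nr1h2, which encodes LXRβ, differed by 0.03 and 0.10 at the first 2 times, neither called, and by 0.11 at the last 2 times, both called (adjusted p = 0.0467 and 0.0366; quantile 0.07 and 0.03). The 1 h difference was 0.16 in the high 18S set, which alone gave no call, and 0.03 in the low one. Leaving out any of 5 libraries ended the Nr1h2 call after 1 h (all but FosKO replicate 1; 0.07 to 0.11), and leaving out replicate 1 or 3 of either genotype ended that after 2 h (0.08 to 0.11).

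Abcg1, which exports cholesterol to high density lipoprotein particles, was higher in the libraries labelled FosKO at each time. Its starting values were 12.54, 12.58 and 12.47 in LysM-Cre and 12.63, 12.79 and 12.83 in FosKO. After 2 h they were 11.97, 12.00 and 12.05 against 12.34, 12.37 and 12.34. After 0.5 h its values were 12.46, 12.47 and 12.43 against 12.74, 12.71 and 12.93. The groups did not overlap at these times and were closest before LPS. The difference was 0.22 ± 0.05 before LPS (limma adjusted p = 0.00254, quantile 0.14) and 0.35 ± 0.05 after 2 h (adjusted p = 1.69e-05, quantile 0.19), with 0.34 and 0.27 between. In the high 18S set it was 0.35 after 0.5 h and 0.34 after 1 h, and in the low set 0.31 and 0.17. Abca1, the exporter that loads lipid-poor apolipoproteins, had a wider spread. It differed by 0.16, -0.04 and 0.10 at the first 3 times, with no call. After 2 h it stood at 13.38, 13.46 and 13.29 in LysM-Cre and 13.71, 13.93 and 13.50 in FosKO, a difference of 0.33 ± 0.10 (adjusted p = 0.00896, quantile 0.17). Those groups did not overlap, but the call rested on FosKO replicate 2, without which the difference was 0.22 (adjusted p = 0.078).

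Mylip, whose protein marks lipoprotein receptors for degradation, was higher in the libraries labelled FosKO at each time and most of all at 1 h. Unstimulated libraries had 10.31, 10.26 and 10.22 in LysM-Cre and 10.41, 10.48 and 10.46 in FosKO. After 1 h they had 10.84, 10.82 and 10.71 against 11.28, 11.37 and 11.31. At both times all FosKO libraries lay above all LysM-Cre libraries. The difference was 0.19 ± 0.03 before LPS (limma adjusted p = 0.00027), 0.15 after 0.5 h, 0.53 ± 0.03 or 1.44-fold after 1 h (adjusted p = 4.76e-10), and finally 0.36. In the high 18S set it was 0.18 after 0.5 h and 0.49 after 1 h, and in the low set 0.08 and 0.52. The genotype calls of Nr1h3, Abcg1 and Mylip held at all 4 times under every alternative run, quantile normalisation and the loss of any 1 library included.

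Among the 3 transport genes, Npc2 was higher and Stard4 lower in the libraries labelled FosKO. Npc2, which binds cholesterol inside the lysosome, was 14.50, 14.49 and 14.46 in unstimulated LysM-Cre and 14.84, 14.98 and 14.96 in unstimulated FosKO. After 0.5 h these were 14.52, 14.42 and 14.45 against 14.94, 14.96 and 15.13, after 1 h 14.47, 14.52 and 14.54 against 14.91, 14.99 and 14.95, and after 2 h 14.59, 14.59 and 14.64 against 15.04, 15.06 and 15.08. The gap was several times the spread within either group and kept its size over time. It came to 0.45, 0.55, 0.44 and 0.45 over the 4 times, each ± 0.04 (limma adjusted p = 1.32e-07, 5.72e-09, 1.57e-07 and 5.24e-08). In the high 18S set it was 0.57 after 0.5 h and 0.50 after 1 h, and in the low set 0.49 and 0.38. The calls of Npc2 held under every alternative, although quantile normalisation brought the values after 1 and 2 h down to 0.28 and 0.19.

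Npc1, the membrane partner of NPC2, differed by 0.10 before LPS and 0.11 after 2 h, both called (adjusted p = 0.0452 and 0.0144), and these differences were -0.01 and -0.04 under quantile normalisation. Without FosKO replicate 2 the later Npc1 difference was 0.06 (adjusted p = 0.132). The earlier call ended when any library but FosKO replicate 1 was left out (0.07 to 0.10). Stard4, a cytosolic carrier that moves sterols between membranes, had 11.17, 11.24 and 11.31 in LysM-Cre before LPS and 11.14, 11.10 and 10.96 in FosKO. After 0.5 h it had 11.28, 11.32 and 11.34 against 11.02, 11.09 and 10.99, and after 1 h 11.49, 11.55 and 11.57 against 11.44, 11.37 and 11.42. All FosKO libraries lay below all LysM-Cre libraries of the same time. Its difference was -0.17 before LPS (adjusted p = 0.00292), -0.28 ± 0.04 after 0.5 h (adjusted p = 1.89e-05), -0.13 after 1 h (adjusted p = 0.0204, quantile -0.20) and -0.10 after 2 h, the last not called. In the high 18S set Stard4 differed by -0.26 after 0.5 h and -0.10 after 1 h, and in the low set by -0.32 and -0.12. The 1 h call ended without LysM-Cre replicate 2 or 3, without FosKO replicate 2 (-0.12 to -0.11), and in the high 18S set alone.

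The sensing genes split, with the SREBP genes and Scap lower and the Insig genes higher in the libraries labelled FosKO. Srebf2, whose product chiefly drives cholesterol synthesis, was 12.61, 12.66 and 12.63 in LysM-Cre before LPS and 12.51, 12.47 and 12.46 in FosKO. Srebf1, whose product chiefly drives fatty acid synthesis, was 11.04, 11.05 and 10.91 against 10.85, 10.86 and 10.77. Neither pair of groups overlapped, although the differences were small. After 0.5 h Srebf2 was 12.68, 12.68 and 12.74 against 12.55, 12.54 and 12.52. Srebf1 was 11.14, 11.18 and 11.14 against 10.98, 11.03 and 10.99 after 1 h, and 11.04, 11.06 and 10.96 against 10.84, 10.90 and 10.84 after 2 h. These groups did not overlap either. Over the 4 times the Srebf2 difference was -0.15 ± 0.03 (limma adjusted p = 0.000306), -0.16, -0.10 and -0.09 (quantile -0.28, -0.27, -0.17 and -0.23), and the Srebf1 difference was -0.17 ± 0.04 (adjusted p = 0.00185), -0.11, -0.15 and -0.16 (quantile -0.25 at the last). The first 2 Srebf2 calls held under every alternative. The call after 1 h ended without LysM-Cre replicate 2 or 3 or without FosKO replicate 1 (-0.09 to -0.07), and the difference there was -0.03 in the high 18S set (not called) and -0.17 in the low one. The Srebf2 call after 2 h ended without LysM-Cre replicate 2 (-0.07), without FosKO replicate 3 (-0.08), and with libraries centred on their median (-0.06). For Srebf1 the call after 0.5 h ended without replicate 1 or 3 of LysM-Cre or 2 or 3 of FosKO (-0.12 to -0.08) and with libraries centred on their median (-0.09). Its value in the high and low 18S sets was -0.08 and -0.16 there and -0.13 and -0.18 after 1 h, and the high set alone gave no call at these times.

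Scap, the escort of the SREBPs, was 10.69, 10.66 and 10.67 in LysM-Cre after 2 h and 10.44, 10.44 and 10.51 in FosKO. The groups were well apart, with a difference of -0.21 ± 0.04 (limma adjusted p = 0.000309), while the earlier differences of -0.10, -0.09 and -0.10 were not called. Insig1 showed no call before LPS, when it was 12.49, 12.54 and 12.52 in LysM-Cre and 12.57, 12.54 and 12.53 in FosKO (0.03 ± 0.03, adjusted p = 0.348, 95% interval -0.02 to 0.09). After 2 h it was 12.60 in all 3 LysM-Cre libraries and 13.03, 13.05 and 13.06 in FosKO. The groups overlapped before LPS and were far apart after 2 h, by 0.45 ± 0.03 or 1.36-fold (adjusted p = 3.27e-11, quantile 0.26). In between, Insig1 differed by 0.09 after 0.5 h (adjusted p = 0.0093) and 0.26 after 1 h (adjusted p = 1.28e-07). The 0.5 h value was -0.02 under quantile normalisation, 0.07 and no longer called without LysM-Cre replicate 1 or 2, and 0.13 and -0.01 in the high and low 18S sets. Insig2 was 9.27, 9.28 and 9.29 against 9.47, 9.43 and 9.37 before LPS, then 9.36, 9.29 and 9.34 against 9.65, 9.66 and 9.65 after 2 h. FosKO lay above LysM-Cre at both times, by 0.15 (adjusted p = 0.00166) and 0.32 ± 0.03 (adjusted p = 1.33e-07). Between these times Insig2 differed by 0.09 after 0.5 h (adjusted p = 0.0397) and by 0.08 after 1 h, which was not called. The 0.5 h call ended under quantile normalisation (0.07), without any of 5 libraries (all but LysM-Cre replicate 1; 0.07 to 0.10) and in the high 18S set alone (0.06, against 0.14 in the low one).

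**Figure D2:**
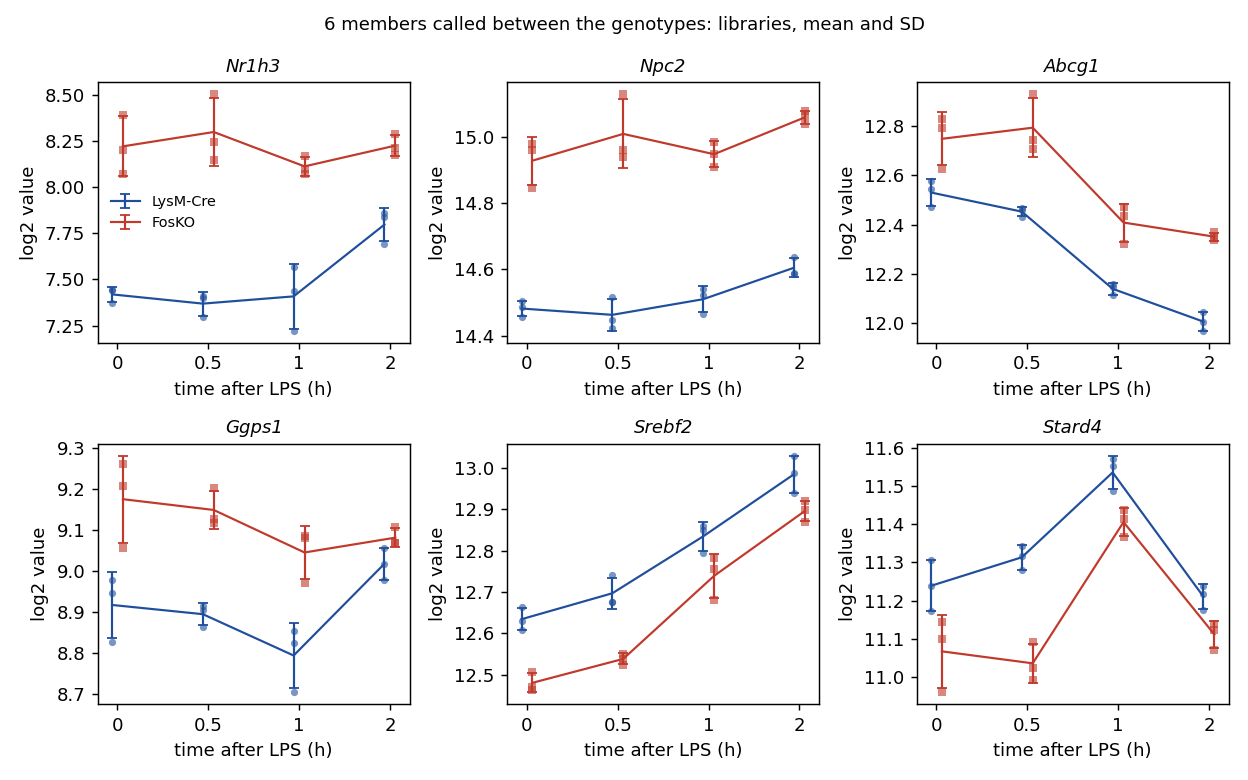
Log2 values of 6 members by time after LPS (0, 0.5, 1 and 2 h, equally spaced), with each library as a point and the mean and SD of 3 libraries per genotype. FosKO lies above LysM-Cre for Nr1h3, Npc2, Abcg1 and Ggps1 and below it for Srebf2 and Stard4, with Ggps1 and Stard4 not called at 2 h.

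Of the 8 mevalonate genes, 3, 3, 4 and 2 were called higher over the 4 times in the libraries labelled FosKO, and 0 lower. The higher calls were 37.5%, 37.5%, 50% and 25% of these genes, against 19.5%, 21.2%, 17.98% and 24.4% of all genes. At 2 h the share was thus near that of all genes. Hmgcs1 makes the substrate of the rate-limiting reductase. It was 12.76, 12.84 and 12.84 in LysM-Cre and 12.89, 13.01 and 13.004 in FosKO before LPS, then 13.10 in all 3 LysM-Cre libraries against 13.32, 13.39 and 13.32 after 2 h. The groups did not overlap at either time. The Hmgcs1 difference was 0.15, 0.13, 0.20 and 0.25 over the 4 times, each ± 0.05 (limma adjusted p = 0.0161, 0.0359, 0.00304 and 0.000272; quantile 0.06, 0.03 and 0.11 at the first, second and last, not called). The starting call also ended without LysM-Cre replicate 1 or without FosKO replicate 2 or 3 (0.13 to 0.14), and the 0.5 h call without LysM-Cre replicate 1 or 2 or without FosKO replicate 2 or 3 (0.08 to 0.13). In the high 18S set Hmgcs1 differed by 0.22 after 0.5 h and 0.29 after 1 h, and in the low set by -0.05 and 0.09. Ggps1, which makes the geranylgeranyl group attached to small GTPases, was 8.95, 8.83 and 8.98 against 9.06, 9.21 and 9.26 before LPS. Its FosKO libraries lay above its LysM-Cre libraries, by 0.26 ± 0.05 (adjusted p = 0.000528), with 0.25 at each of the next 2 times (0.28 and 0.23 among high 18S libraries, 0.21 both times among low ones), and a last value of 0.06 that was not called. Mvd, which forms isopentenyl diphosphate, was called at the first 3 times (0.15, 0.21 and 0.17; after 0.5 h 0.25 in the high and 0.13 in the low 18S set, after 1 h 0.29 and 0.02). The Mvd call after 0.5 h held under every alternative, and quantile normalisation ended the other 2 (quantile 0.12 and 0.14). The starting call ended without replicate 1 or 3 of LysM-Cre or 1 or 2 of FosKO (0.11 to 0.15), and that after 1 h without replicate 1 or 2 of LysM-Cre or 2 or 3 of FosKO (0.13 to 0.17).

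From squalene to cholesterol the calls went in both directions, as they did among all genes. The higher and lower counts among 11 enzymes were 2 and 0, 1 and 3, 2 and 2, and 3 and 2 over the 4 times. Of all genes, 19.5%, 21.2%, 17.98% and 24.4% were called higher and 15.9%, 19.7%, 15.88% and 20.3% lower. Dhcr7, which makes cholesterol in the last step of the Kandutsch-Russell route, was 10.19, 10.27 and 10.24 in LysM-Cre and 10.42, 10.39 and 10.34 in FosKO before LPS, then 9.83, 9.87 and 9.75 against 10.12, 10.21 and 10.14 after 2 h. At these times all libraries labelled FosKO lay above all LysM-Cre libraries, by 0.15 (limma adjusted p = 0.00903, quantile 0.10, not called) and 0.34 ± 0.04 (adjusted p = 1.99e-06), with 0.17 and 0.25 between (0.19 and 0.31 among high 18S libraries, 0.13 and 0.23 among low ones). Lss, which closes the sterol rings, was also called higher at 0, 1 and 2 h (0.14, 0.22 and 0.15), and its 0.5 h difference of 0.12 was not called (adjusted p = 0.0641). Its 1 h call held under every alternative (0.30 in the high and 0.14 in the low 18S set), its starting call ended without replicate 1 or 2 of either genotype (0.10 to 0.15) and under quantile normalisation (0.09), and its 2 h call ended without LysM-Cre replicate 1 (0.13), without FosKO replicate 2 (0.10) and under quantile normalisation (0.07). Sqle, which oxidises squalene, lay the other way. After 1 h it stood at 12.11, 12.16 and 12.23 in LysM-Cre and 11.92, 12.00 and 12.06 in FosKO. These groups were apart by -0.17 ± 0.05 (adjusted p = 0.00742), with -0.08 in the high 18S set (not called) and -0.27 in the low one. The Sqle values of -0.15 after 0.5 h and -0.13 after 2 h (quantile -0.26) were called as well. The first of these calls ended without replicate 3 of LysM-Cre or 1 or 3 of FosKO (-0.14 to -0.12) and in the high 18S set alone (-0.10, against -0.27 in the low one), and the second with libraries centred on their median (-0.10) and without replicate 2 or 3 of LysM-Cre or 1 or 3 of FosKO (-0.13 to -0.12).

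Sc5d, a sterol desaturase, was 11.59, 11.61 and 11.68 in LysM-Cre after 2 h and 11.48, 11.44 and 11.51 in the libraries labelled FosKO. The groups did not overlap and differed by -0.15 ± 0.04 (limma adjusted p = 0.00336, quantile -0.25). Tm7sf2, a sterol reductase, was 8.50, 8.35 and 8.48 against 8.17, 8.26 and 8.16 after 0.5 h. Its difference of -0.24 ± 0.09 was called (adjusted p = 0.0294), but no longer without replicate 1 or 3 of either genotype (-0.23 to -0.22) or in the high 18S set alone (-0.21, against -0.30 in the low one). Ebp, the sterol isomerase, was called after 1 h (-0.09) and Nsdhl, a sterol dehydrogenase, after 2 h (0.11), and each call ended when any of 4 libraries was left out (replicates 2 and 3 of both genotypes for Ebp, -0.08 to -0.07; LysM-Cre replicates 1 and 3 and FosKO replicates 1 and 2 for Nsdhl, 0.08 to 0.11). The Ebp call also ended in the high 18S set alone (-0.05, against -0.07 in the low one), and the Nsdhl call under quantile normalisation (0.03).

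The sequence before Hmgcs1 is shown because it was the only promoter window of a member to hold the letters TCACNCCAC, a form of the sterol regulatory element that SREBPs bind. Windows of 300 bases, from 250 before to 50 after an annotated start, were taken from RefSeq for build GRCm38.p6, and 26 of the 32 members had a window, 35 windows in all. The 6 members without a window, Fdps, Fdft1, Sqle, Stard4, Npc1 and Abcg1, were not searched. The letters were searched on both strands. They occurred in 2.9% of the members' windows and in 1.24% of 32851 windows of all genes. The match lies before the start of Hmgcs1, within chr13:119690199-119690237 on the plus strand, and is in capitals.
Hmgcs1: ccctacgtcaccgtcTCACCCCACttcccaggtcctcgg
The letters CCAAT, the core of the NF-Y motif, were in 62.9% of the members' windows and 37.4% of all, and GGGCGG, the core of the SP1 motif, was in 74.3% and 35.7%. The AP-1 letters TGANTCA, which FOS and JUN dimers bind, were in 2 members' windows (5.7%, Dhcr7 and Msmo1) and in 7.81% of all. A direct repeat of AGGTCA with 4 bases between the copies, the form LXRs bind, was in 0 of the 35 windows and in 0.0152% of all. A match is a description of the letters and does not show that a factor binds there.

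After LPS the sterol genes changed in stages, with the deposited scaling. Each time was compared with the 0 h libraries, and later times had no unstimulated group. LPS and time in culture thus cannot be told apart. Insig1 and Mylip rose within 0.5 h. By 1 h Hmgcs1, Idi1, Stard4 and Scap had risen and Abcg1 had fallen in both genotypes, and Dhcr7 had fallen in LysM-Cre. By 2 h Scap was higher still, and the late enzymes Lss and Dhcr7 were lower in both genotypes. The comparisons of a genotype share its 0 h libraries. In LysM-Cre, 3 members rose and 0 fell within 0.5 h, where 5.09% of all genes rose and 2.15% fell. By 1 h 13 rose and 2 fell (19.2% and 16.5% of all genes), and by 2 h 12 rose and 7 fell (30.56% and 30.21%). In FosKO, 3 rose and 0 fell within 0.5 h (4.45% and 1.47%), 12 rose and 1 fell by 1 h (17.60% and 15.01%), and 13 rose and 7 fell by 2 h (32.6% and 29.5%). The members called higher at 1 h were thus a larger share than among all genes, and at 2 h the members' shares were nearer to those of all genes. The members' median change by 2 h was 0.04 in LysM-Cre and 0.06 in FosKO, where that of all genes was -0.02 and 0.00. At 0.5 h in FosKO the replicate numbers of the 2 groups deviated together, and a fit with the replicate number as a block called 5 members. Among all genes that fit called 960, against 823 without the block. Besides Insig1 and Mylip, the early calls were Hmgcs1 in LysM-Cre (0.16, limma adjusted p = 0.0444) and Srebf1 in FosKO (0.14, adjusted p = 0.0467). The first ended when any of 5 of the 6 libraries was left out (all but LysM-Cre replicate 1 after 0.5 h; 0.13 to 0.18), and the second when any of the 6 was (0.11 to 0.15). Both also ended under quantile normalisation (0.08 and 0.10) and with the high 18S libraries alone (0.14 and 0.13).

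Directions after LPS depended on the scaling more than those between genotypes did. Quantile normalisation lowered the members' 2 h changes by a median of 0.16 in LysM-Cre and 0.20 in FosKO. The members that then rose and fell numbered 2 and 3, 6 and 8, and 3 and 17 over the 3 times of LysM-Cre, and 2 and 2, 6 and 7, and 7 and 15 in FosKO. All genes called then numbered 1261, 5442 and 8417 in LysM-Cre, against 1007, 4970 and 8448 with the deposited scaling. In FosKO they numbered 1071, 4994 and 8436, against 823, 4534 and 8636. For FosKO after 2 h, centring each library on its median gave 17 and 5, and scaling factors from a trimmed mean of log ratios (TMM) gave 10 and 9.

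**Figure D3:**
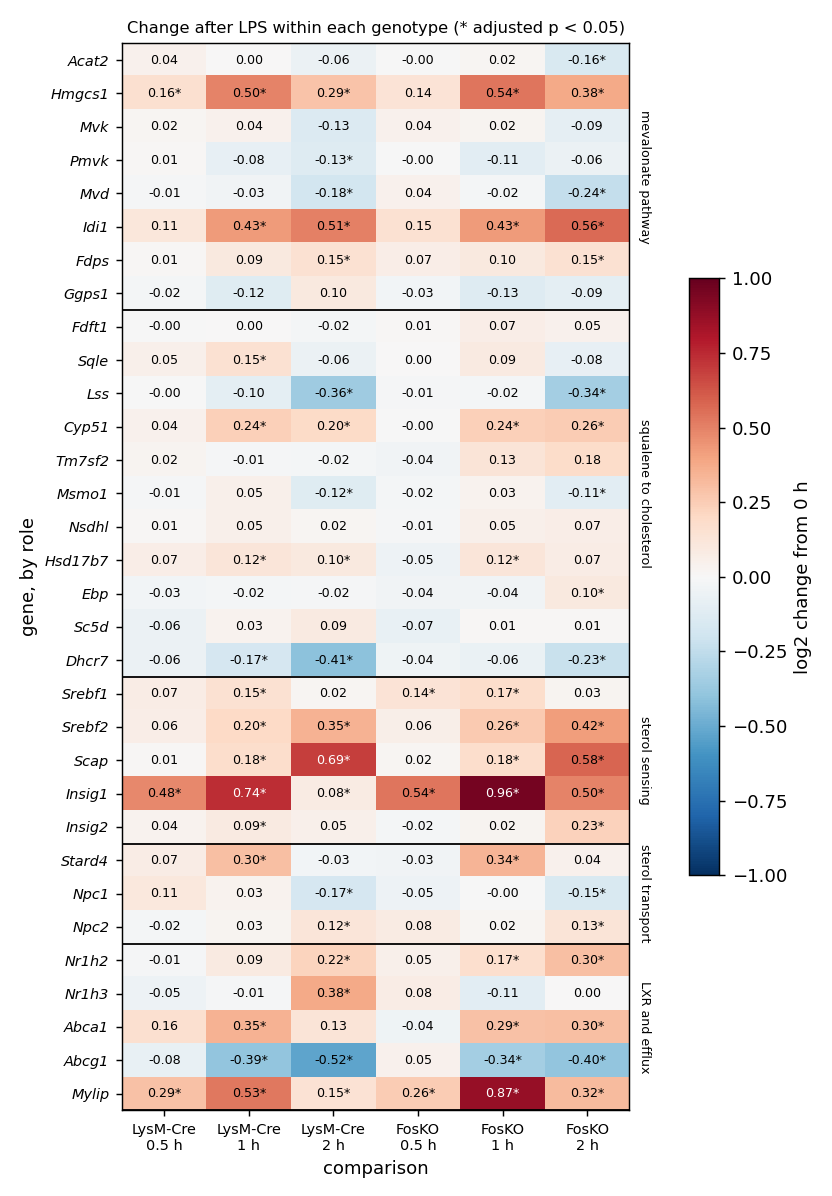
Change from 0 h for the 32 genes (rows, grouped by role) at 0.5, 1 and 2 h of LPS in LysM-Cre (left columns) and FosKO (right columns), as log2 difference of group means of 3 libraries, with stars at an adjusted p under 0.05. Insig1 at 1 h is the strongest rise, 0.74 and 0.96, and Abcg1 at 2 h the strongest fall in LysM-Cre, -0.52.

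All 5 sensing genes were called higher by 1 h in LysM-Cre and 4 of them in FosKO, all but Insig2 (19.2% and 17.60% of all genes). The Insig2 call in LysM-Cre (0.09, limma adjusted p = 0.0363) ended under quantile normalisation (0.07), with the high 18S libraries alone (0.12) and without any of 5 libraries (all but LysM-Cre 1 h replicate 3; 0.08 to 0.10). Insig1, a feedback inhibitor of SREBP transport, rose in LysM-Cre by 0.48 within 0.5 h and 0.74 ± 0.03 (1.66-fold) within 1 h (limma adjusted p = 1.59e-15), and in FosKO by 0.54 and then 0.96 ± 0.03 (1.95-fold, adjusted p = 1.83e-17). These rises held under every alternative. After 2 h LysM-Cre was close to its start, though still called higher, 12.60 in each library against 12.49, 12.54 and 12.52, a change of 0.08 (adjusted p = 0.00737) that was -0.19 under quantile normalisation, whereas FosKO was still 0.50 above its start (adjusted p = 4.09e-13, quantile 0.11). Scap moved mostly after 1 h. The LysM-Cre libraries started from 10.06, 10.01 and 9.87 and reached 10.69, 10.66 and 10.67 after 2 h, while the FosKO libraries started from 9.92, 9.88 and 9.84 and reached 10.44, 10.44 and 10.51. Its rise by 2 h was the largest of any member in either genotype, 0.69 ± 0.04 (adjusted p = 6.02e-12) and 0.58 ± 0.04 (adjusted p = 8.74e-11), against 0.18 in both by 1 h (quantile 0.11, and 0.10, not called, in FosKO). Srebf2 had risen by 0.20 after 1 h and 0.35 after 2 h in LysM-Cre (quantile -0.0022 and 0.02, not called), and by 0.26 and 0.42 in FosKO (quantile 0.10, called, and 0.07, not called). Srebf1 was up 0.15 and 0.17 after 1 h (quantile 0.03 and 0.07, not called; 0.14 with the high 18S libraries alone in LysM-Cre, not called), and its later changes of 0.02 and 0.03 were not called and turned to -0.17 and -0.18 under quantile normalisation.

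The mevalonate genes moved both ways. Idi1, the isopentenyl isomerase, had starting values of 11.71, 11.83 and 11.86 and 2 h values of 12.24, 12.30 and 12.38 in LysM-Cre, and 11.85, 11.86 and 11.90 against 12.44, 12.39 and 12.47 in FosKO. Each 2 h library lay above each unstimulated library of its genotype, and the rises of 0.51 ± 0.05 (limma adjusted p = 3.91e-08, quantile 0.24) and 0.56 ± 0.05 (adjusted p = 7.37e-09, quantile 0.22) were called under every alternative. Hmgcs1 was highest after 1 h, 0.50 above its start in LysM-Cre (quantile 0.25) and 0.54 in FosKO (quantile 0.33), both called under every alternative. After 2 h it was 0.29 and 0.38 above, values that were -0.06 and -0.02 under quantile normalisation. Mvd fell by 2 h, its LysM-Cre libraries going from 9.50, 9.66 and 9.53 to 9.35, 9.47 and 9.31 and its FosKO libraries from 9.72, 9.79 and 9.64 to 9.40, 9.54 and 9.49. The groups did not overlap within either genotype, with changes of -0.18 ± 0.06 (adjusted p = 0.0101) and -0.24 ± 0.06 (adjusted p = 0.00132). In LysM-Cre the Mvd call ended without unstimulated replicate 2 (-0.14) or 2 h replicate 3 (-0.15). Fdps, which makes farnesyl diphosphate, rose by 0.15 in both genotypes by 2 h, values that were -0.10 and -0.15 under quantile normalisation. The Fdps call in LysM-Cre ended without unstimulated replicate 1 or 2 h replicate 2 or 3 (0.11 to 0.13), and that in FosKO without unstimulated replicate 3 (0.09, adjusted p = 0.122) and with TMM factors (0.12).

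Of the late enzymes, Lss, Dhcr7 and Msmo1 fell and Cyp51 rose. Lss was 10.61, 10.69 and 10.71 before LPS and 10.26, 10.36 and 10.31 after 2 h in LysM-Cre, and 10.79, 10.88 and 10.75 against 10.38, 10.56 and 10.46 in FosKO. Dhcr7 was 10.19, 10.27 and 10.24 against 9.83, 9.87 and 9.75 in LysM-Cre, and 10.42, 10.39 and 10.34 against 10.12, 10.21 and 10.14 in FosKO. Neither gene had overlapping groups within a genotype. Lss changed by -0.36 ± 0.05 in LysM-Cre (limma adjusted p = 4.13e-06) and -0.34 in FosKO (quantile -0.51). Dhcr7 changed by -0.41 ± 0.04 in LysM-Cre (adjusted p = 4.1e-08) and -0.23 ± 0.04 in FosKO (adjusted p = 0.000112, quantile -0.35). These falls held under every alternative. After 1 h Dhcr7 had changed by -0.17 in LysM-Cre (adjusted p = 0.00453, quantile -0.26), called under every alternative, and by -0.06 in FosKO, which was not called. Cyp51, the lanosterol demethylase, had risen by 0.20 in LysM-Cre and 0.26 in FosKO after 2 h, values that turned to -0.10 and -0.10 under quantile normalisation. Msmo1 changed by -0.12 in LysM-Cre (limma adjusted p = 0.00319) and -0.11 in FosKO (adjusted p = 0.00769) after 2 h. Its LysM-Cre call held under every alternative (-0.42 to -0.09). The FosKO call ended with libraries centred on their median, and its values ran from -0.46 to -0.05. Sqle (-0.06 and -0.08) and Fdft1 (-0.02 and 0.05) were not called after 2 h, whereas quantile normalisation called Sqle lower (-0.34 and -0.40) and Fdft1 lower (-0.19 and -0.16).

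**Figure D4:**
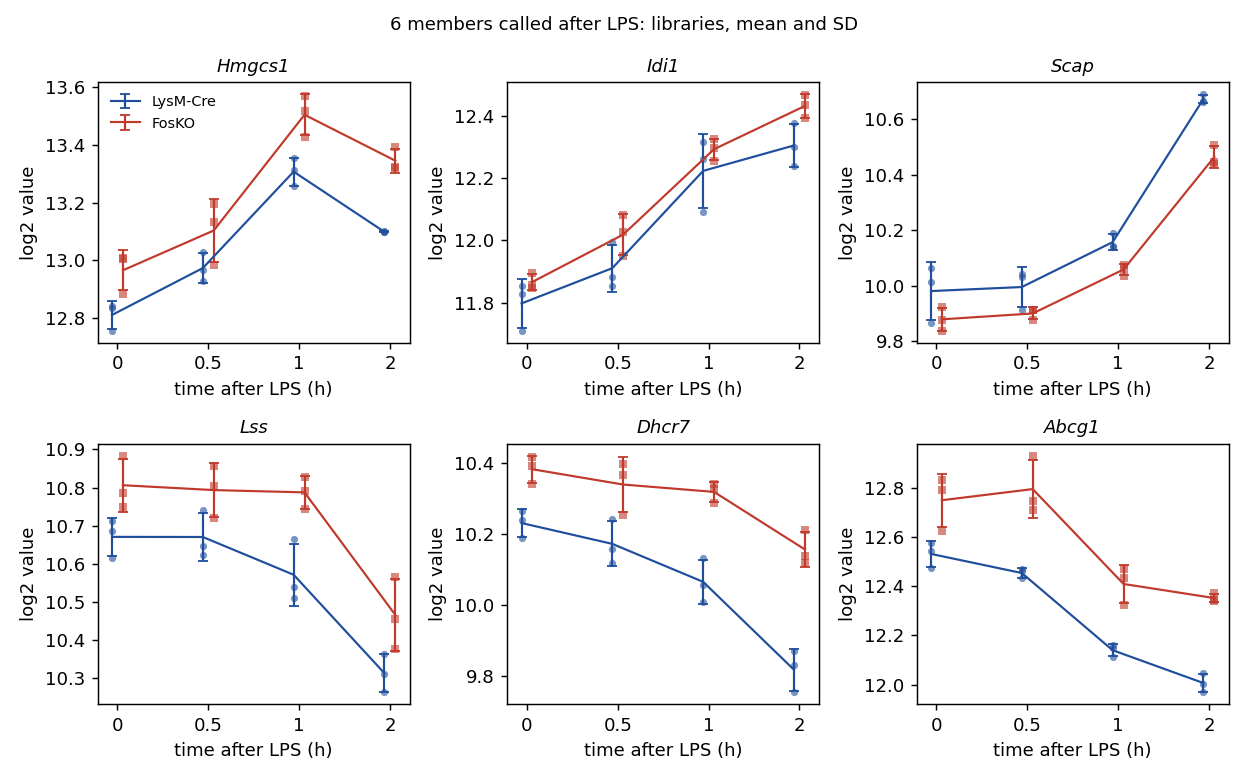
Log2 values of 6 members by time after LPS (0, 0.5, 1 and 2 h, equally spaced), with each library as a point and the mean and SD of 3 libraries per genotype. Hmgcs1 is highest at 1 h and Idi1 and Scap at 2 h, while Lss, Dhcr7 and Abcg1 are lowest at 2 h in both genotypes.

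In the efflux branch Abcg1 fell, while Mylip rose most by 1 h and was closer to its start, though still called higher, by 2 h. In LysM-Cre the unstimulated Abcg1 values given above were followed by 12.11, 12.16 and 12.15 after 1 h and 11.97, 12.00 and 12.05 after 2 h. In FosKO they were followed by 12.32, 12.47 and 12.43 and then 12.34, 12.37 and 12.34. Every library after 1 or 2 h lay below every unstimulated library of its genotype. The 2 h change was -0.52 ± 0.05 in LysM-Cre, a level 0.70 times the start (limma adjusted p = 2.17e-08, quantile -0.81), and -0.40 ± 0.05 in FosKO (adjusted p = 1.14e-06, quantile -0.75), and both were called under every alternative. Mylip rose by 0.29, 0.53 and 0.15 over the 3 times in LysM-Cre and by 0.26, 0.87 and 0.32 in FosKO, all called, with quantile values of 0.0063 (not called) and 0.12 for the last of each. Abca1 had risen after 1 h, by 0.35 in LysM-Cre and 0.29 in FosKO (quantile 0.15 and 0.04, not called). The first call ended without LysM-Cre 1 h replicate 1 (0.27), and the second without unstimulated FosKO replicate 1 or 2 or FosKO 1 h replicate 2 or 3 (0.21 to 0.30). Its 2 h rise of 0.30 in FosKO was -0.14 under quantile normalisation, and the call ended without unstimulated FosKO replicate 1 (0.23) or FosKO 2 h replicate 2 (0.19).

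Nr1h3 had risen after 2 h in LysM-Cre, by 0.38 ± 0.09 (limma adjusted p = 0.00126, called under every alternative), and its change in FosKO was 0.00 ± 0.09 (adjusted p = 0.974, 95% interval -0.19 to 0.20). The difference between these responses was -0.37 ± 0.13, which missed the threshold (adjusted p = 0.0576). It was called under quantile normalisation (-0.41), with TMM factors (-0.40), with a filter at a linear value of 50 in place of 5, with the groups compared alone, with either replicate block (-0.37 in each), and without unstimulated FosKO replicate 1 (-0.45) or LysM-Cre 2 h replicate 1 (-0.43). Over all alternatives its adjusted p ran from 0.0254 to 0.147. Nr1h2 rose by 0.22 and 0.30 over 2 h (quantile 0.08, not called, and 0.13, called). Among the carriers, Stard4 was up 0.30 and 0.34 after 1 h (quantile 0.20 and 0.24, called under every alternative), and its 2 h changes of -0.03 and 0.04 were not called (quantile -0.23 and -0.18, both called). Npc1 had fallen by 0.17 in LysM-Cre and 0.15 in FosKO after 2 h, called under every alternative (quantile -0.48 and -0.51; -0.09 in FosKO with median centring). Npc2 rose by 0.12 and 0.13 over 2 h, values that turned to -0.32 and -0.43 under quantile normalisation. The Npc2 call in LysM-Cre ended without unstimulated or 2 h replicate 3 (0.11 in both cases), and that in FosKO without unstimulated replicate 1 (0.09) and with TMM factors (0.09).

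Whether LPS acted to a different extent in FosKO was tested as the difference between the 2 responses. Within 0.5 h limma called 0 members, where it called 0.115% of all genes, 1 member had an unadjusted p under 0.05, and every alternative called 0 as well. By 1 h the difference, FosKO minus LysM-Cre, was called positive for 2 members and negative for 0 (0.489% and 0.727% of all genes). By 2 h these numbers were 4 and 0 (7.27% and 7.70%). With TMM factors the 2 h numbers were 3 and 2, and under quantile normalisation 2 and 1. The members called were Insig1 and Mylip by 1 h, with Insig2 and Dhcr7 joining them by 2 h. Of these, Dhcr7 fell in both genotypes and fell less in FosKO, so its positive sign marks a weaker response there.

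For Insig1 the response exceeded that in LysM-Cre by 0.22 ± 0.04 after 1 h (limma adjusted p = 0.00107) and 0.41 ± 0.04 after 2 h (adjusted p = 9.57e-08). Its LysM-Cre libraries fell back from 13.21, 13.29 and 13.25 after 1 h to 12.60 after 2 h, and its FosKO libraries from 13.50, 13.51 and 13.51 to 13.03, 13.05 and 13.06. The genotypes were further apart after 2 h, when LysM-Cre was near its start. For Mylip the excess was 0.34 ± 0.05 after 1 h (adjusted p = 0.000322) and 0.17 ± 0.05 after 2 h (adjusted p = 0.0224). The Insig1 calls at both times and the earlier Mylip call held under every alternative. The later Mylip call ended under quantile normalisation (0.12), without unstimulated replicate 1 of either genotype, without LysM-Cre 2 h replicate 1 and without FosKO 2 h replicate 2 (0.15 to 0.16).

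Insig2 rose by 0.23 over 2 h in FosKO (adjusted p = 4.35e-06) and changed by 0.05 in LysM-Cre, which was not called. The difference in response, 0.18 ± 0.05 (limma adjusted p = 0.0136), held under every alternative. For Dhcr7 the fall was smaller in FosKO by 0.19 ± 0.06 (adjusted p = 0.0422). That call ended when any of 8 libraries was left out (unstimulated replicates 2 and 3 of both genotypes, LysM-Cre 2 h replicates 1 and 3, FosKO 2 h replicates 2 and 3; 0.16 to 0.20), and with quantile normalisation, TMM factors, no filter or no variance trend (0.16 to 0.19).

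**Figure D5:**
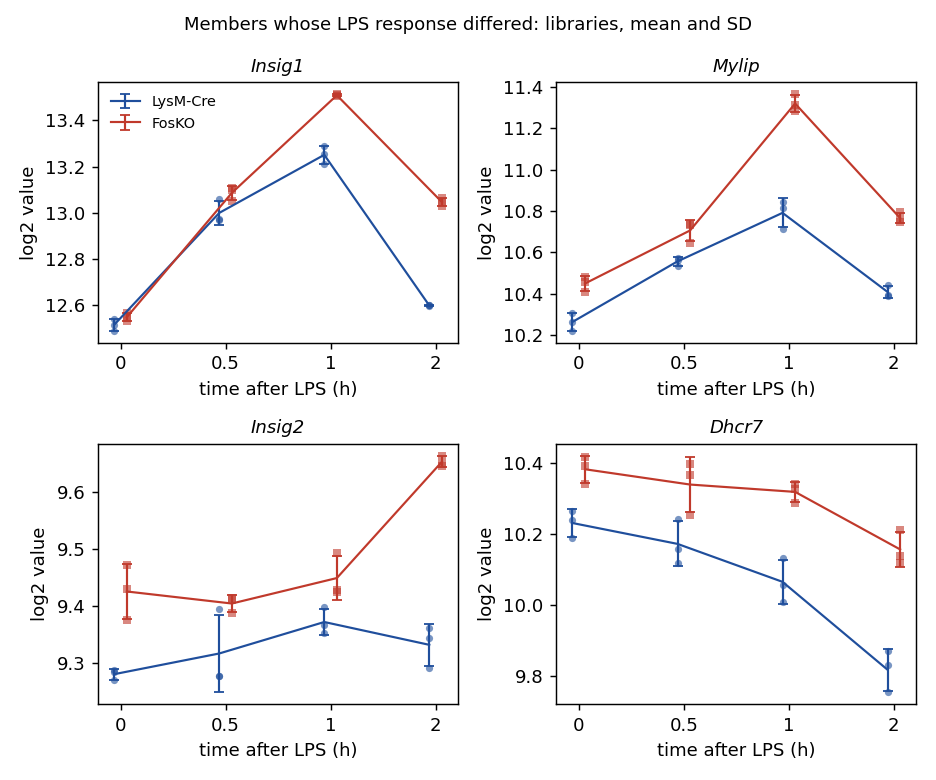
Log2 values of the 4 members whose LPS response differed between genotypes, by time after LPS (0, 0.5, 1 and 2 h, equally spaced), with each library as a point and the mean and SD of 3 libraries. Insig1 starts level and ends 0.45 higher in FosKO at 2 h, and Mylip is 0.53 higher in FosKO at 1 h.

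The upstream sequences of Insig1 and Mylip are shown because these were the members whose early response differed between the genotypes after both 1 and 2 h. Both runs are on the plus strand of build GRCm38.p6 from RefSeq, end just before the first annotated exon base, and carry CCAAT and GGGCGG matches of either strand in capitals. The 201 bases of Insig1 are at chr5:28071162-28071362 and hold 1 CCAAT and 3 GGGCGG matches. The 250 bases of Mylip are at chr13:45389492-45389741 and hold 3 CCAAT matches and 1 GGGCGG match.
Insig1: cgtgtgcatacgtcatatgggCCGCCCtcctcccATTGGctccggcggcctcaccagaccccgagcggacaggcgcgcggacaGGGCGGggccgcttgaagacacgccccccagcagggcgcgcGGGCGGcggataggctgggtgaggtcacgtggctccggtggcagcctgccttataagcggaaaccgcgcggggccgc
Mylip: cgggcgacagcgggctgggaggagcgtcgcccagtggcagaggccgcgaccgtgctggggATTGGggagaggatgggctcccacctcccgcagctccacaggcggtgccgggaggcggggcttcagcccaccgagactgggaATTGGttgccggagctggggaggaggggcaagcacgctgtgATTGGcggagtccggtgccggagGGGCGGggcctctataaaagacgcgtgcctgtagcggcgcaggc
Neither window held the letters TGANTCA or TCACNCCAC, which says only that those letters are not within these bases.

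A wider list of 23 sterol handling genes and LXR targets, 22 of them in the table, moved in both directions between the genotypes, with 9 called higher and 6 lower before LPS and 9 and 7 after 2 h, and medians of 0.01 and 0.04. Of all genes, 19.5% were higher and 15.9% lower before LPS, and 24.4% and 20.3% after 2 h. The strongest difference upward after 2 h was in Ch25h, which makes the oxysterol 25-hydroxycholesterol. Ch25h was 6.06, 6.09 and 6.03 in LysM-Cre and 6.22, 6.66 and 6.46 in FosKO before LPS, then 8.39, 8.35 and 8.43 against 9.69, 9.48 and 9.75 after 2 h. The groups were apart at both times, by 0.39 and 1.25, and the 2 h rise was 2.33 in LysM-Cre and 3.19 in FosKO. The difference in that response was 0.86 ± 0.14 (limma adjusted p = 0.000229). Pltp, a phospholipid transfer protein and LXR target, was lower in FosKO by 0.86, 0.72, 0.80 and 0.72 at the 4 times, opposite in direction to Abcg1. Stard3, a late endosomal sterol carrier, was higher by 0.47 before LPS and 0.46 after 2 h. After 2 h of LPS, Gramd1a, a membrane-contact sterol carrier, rose by 1.67 and 1.60 in LysM-Cre and FosKO, and Arl4c, an LXR target, changed by -1.51 and -1.09. The fall of Arl4c was smaller in FosKO by 0.42 ± 0.05 (adjusted p = 2.39e-06), called under every alternative. Between genotypes Arl4c differed by -0.33, -0.38, -0.16 and 0.08 over the 4 times, all called, the last of them no longer under 9 of 17 alternatives.

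Fatty acid synthesis genes that SREBPs also activate were called lower more often than higher in the libraries labelled FosKO, with higher and lower counts among 14 genes of 1 and 5, 3 and 8, 1 and 5, and 2 and 6 over the 4 times and medians of -0.05, -0.14, -0.06 and -0.11. Of all genes 15.9%, 19.7%, 15.88% and 20.3% were lower at these times, and 19.5%, 21.2%, 17.98% and 24.4% higher. Scd1, the stearoyl-CoA desaturase and a target of SREBP-1 and LXR, was 11.89, 12.15 and 12.08 in LysM-Cre and 10.96, 11.02 and 10.95 in FosKO before LPS. The differences over the 4 times were -1.06 ± 0.08 (limma adjusted p = 2.28e-09), -1.18, -1.05 and -0.92, with the groups well apart. Fads2, a fatty acid desaturase, was lower as well, by 0.49 before LPS and 0.37 after 2 h. These differences of Ch25h, Pltp, Stard3, Scd1 and Fads2 were called under every alternative run.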

How the data were processed

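RNA-seq libraries of BMDMs were made with a TruSeq kit and sequenced from 1 end, strand-specifically. The authors aligned reads with STAR 2.5.2a and estimated gene counts with RSEM 1.2.31. The submitters' processing notes list DESeq2 1.16.1 and build GRCm38, whereas the study's methods name another DESeq2 version. They deposited normalised log2 values (-2.22 to 19.39), so genes with few reads may have been pulled towards their mean, and depth and counting error are unknown. The study names RefSeq genes, whereas the table has Ensembl identifiers.

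Members, roles and other lists were chosen with earlier results of these data known. All 24 libraries entered a limma 3.58.1 fit (R 4.3.3) of 8 group means with a variance trend, 16 residual degrees of freedom and Benjamini-Hochberg adjustment over 13901 genes, for 13 comparisons. With 3 libraries against 3 an exact permutation test cannot go below p = 0.1, so none was run. Values per library were given for the 3 largest called rises and falls in each genotype comparison, after 2 h of LPS and in the response difference at 2 h, and beyond the members up to 4 genes with the largest change. Fold differences are 2 to the power of the log2 difference. The fit was tested on simulated data. Alternatives were other scalings (quantile, median, TMM factors), filters, a pseudocount of 1, no trend, fewer groups, replicate blocks, 18S sets and each library left out.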

Additional observations from a re-analysis of the deposited data

Results flagged for a closer look

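Between the genotypes, 6 LPS responses of the members differed by a test of the difference itself. Insig1 responded more in FosKO, with an excess of 0.22 after 1 h and 0.41 after 2 h (log2, limma adjusted p = 0.00107 and 9.57e-08). For Mylip the excess was 0.34 and 0.17 (adjusted p = 0.000322 and 0.0224). For Insig2 it was 0.18 after 2 h (adjusted p = 0.0136). Dhcr7 fell less in FosKO than in LysM-Cre after 2 h, by 0.19 (adjusted p = 0.0422). In each case the 3 libraries labelled FosKO lay above the 3 labelled LysM-Cre at the time named. For Mylip, Insig2 and Dhcr7 they already did so before LPS, so for these genes that position does not bear on the response. The Dhcr7 call ended when any of 8 libraries was left out, and the 2 h Mylip call when any of 4 was.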

How the results depend on the processing

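The depth behind each value is unknown. Under every alternative run, 9 of 14, 9 of 16, 9 of 17 and 10 of 19 genotype calls were kept over the 4 times, 2 of 3, 8 of 15 and 8 of 19 LPS calls in LysM-Cre, 2 of 3, 7 of 13 and 11 of 20 in FosKO, and 2 of 2 and 2 of 4 differences in response. Leaving out 1 library gave 12 to 14, 12 to 14, 11 to 16 and 14 to 17 genotype calls, 2 to 3, 13 to 14 and 15 to 18 LPS calls in LysM-Cre, 2 to 3, 11 to 13 and 19 to 20 in FosKO, and 0 to 0, 2 to 2 and 2 to 5 differences in response. Genotype calls among all genes without 1 library ran from 3975 to 5094, 4617 to 5401, 3790 to 4766 and 5485 to 5760. With all libraries they were 4919, 5689, 4708 and 6202. Quantile normalisation called 5 members after 0.5 h in LysM-Cre, and 1261 of all genes in place of 1007. The replicate numbers pair no samples by the labels or the correlation of deviations, except after 0.5 h in FosKO, where the replicate block called 5 members in place of 3, and 5 nested in genotype. Elsewhere the block gave 16, 19, 17 and 20 genotype calls, 3, 15 and 20 LPS calls in LysM-Cre, 14 and 21 in FosKO, and 0, 2 and 5 differences in response. Between genotypes it called 5136, 5886, 4876 and 6315 of all genes. 

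Values that changed sign and were called with the deposited scaling, under the alternative or in both did so under quantile normalisation and no other alternative run, and the cause was not tested. Sign changes of values called in neither are not listed. Between genotypes they were Npc1 (-0.013 before LPS and -0.036 after 2 h) and Insig1 (-0.025 after 0.5 h). In LysM-Cre after 1 h they were Sqle -0.025, Msmo1 -0.13, Sc5d -0.10, Srebf2 -0.0022, Npc1 -0.19 and Npc2 -0.26, and after 2 h Hmgcs1 -0.060, Fdps -0.10, Cyp51 -0.10, Nsdhl -0.11, Hsd17b7 -0.017, Sc5d -0.16, Srebf1 -0.17, Insig1 -0.19 and Npc2 -0.32. In FosKO after 1 h they were Msmo1 -0.15, Sc5d -0.11 and Npc2 -0.28, and after 2 h Hmgcs1 -0.016, Fdps -0.15, Fdft1 -0.16, Cyp51 -0.10, Sc5d -0.25, Srebf1 -0.18, Stard4 -0.18, Npc2 -0.43 and Abca1 -0.14.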
